A study of Homo sapiens with 6 samples.

Results

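Natural antisense genes, which are non-coding genes annotated on the strand opposite to a coding gene, were followed in HCT116 cells after 16 h of auxin. Members were the genes of type antisense in GENCODE release 29 with 10 or more expected counts in 3 or more of the 6 libraries. Small nucleolar RNA host genes named SNHG and EPB41L4A-AS1 were left out, 6 genes in all. This gave 1490 members of 5587 annotated antisense genes and of 20271 genes that met the same count minimum. Just inside the minimum, 55 antisense genes had a third-highest count of 10 to 11, and just outside it 55 had one of 9 to under 10.

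The study compared HCT116, an established human colorectal carcinoma line, after 16 h of auxin (3 libraries) and with DMSO, the solvent control (3 libraries). Auxin is a plant hormone that is used to trigger the degradation of a degron-tagged protein, and the labels name neither such a protein nor a clone. The title given to the series is about networks at nuclear speckles, nuclear bodies rich in splicing factors. The labels number the replicates 1 to 3 in each group as separate biological replicates, and p-values measure the spread between them.

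Antisense RNA is made by RNA polymerase II from its own promoter, from a promoter shared with a coding gene that runs the other way, or from inside or beyond the coding gene. Many such RNAs stay in the nucleus and are short-lived, because the nuclear exosome, a multi-subunit RNase guided by adaptor complexes, degrades them. Some act on the gene in cis, for example by silencing an imprinted cluster, while many have no known function.

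Each member was set against its host, here the coding gene on the opposite strand with which it shared the most bases. The host's exons were those of its principal coding transcript. Of the members, 1298 overlapped a host, with 1204 distinct hosts, and 207 overlapped 2 or more coding genes. Exons of 268 members met only the host's first exon, exons of 285 met only its last exon, and 38 met both. A further 246 met only an internal exon, and 461, called intron-only below, lay on host sequence without touching those exons. Of the 461, 187 overlapped the host gene only outside its principal transcript, so they lie in no intron of that transcript. Among the 192 members without overlap, 106 started within 1 kb of an opposite-strand coding start (divergent) and 86 did not. Since 81 hosts had 2 or more members, members are not independent of each other.

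The start regions below show how closely the paired genes are packed. Each is the 250 bases before the start of the named gene in RefSeq (GRCh38.p14), 5' to 3' on that gene's strand. Capitals mark bases inside an annotated exon of the partner, which lies on the other strand. The partners are PRKAG2-AS1 for PRKAG2, DDX11-AS1 for DDX11, DNAJC27-AS1 for DNAJC27, ZEB1 for ZEB1-AS1, VPS9D1 for VPS9D1-AS1 and MCM3AP for MCM3AP-AS1.
PRKAG2, chr7:151877116-151877365, minus strand: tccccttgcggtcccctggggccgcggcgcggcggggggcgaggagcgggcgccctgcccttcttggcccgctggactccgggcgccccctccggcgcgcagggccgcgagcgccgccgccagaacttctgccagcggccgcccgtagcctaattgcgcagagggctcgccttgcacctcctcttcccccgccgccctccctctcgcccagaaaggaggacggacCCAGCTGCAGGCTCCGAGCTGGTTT
DDX11, chr12:31073610-31073859, plus strand: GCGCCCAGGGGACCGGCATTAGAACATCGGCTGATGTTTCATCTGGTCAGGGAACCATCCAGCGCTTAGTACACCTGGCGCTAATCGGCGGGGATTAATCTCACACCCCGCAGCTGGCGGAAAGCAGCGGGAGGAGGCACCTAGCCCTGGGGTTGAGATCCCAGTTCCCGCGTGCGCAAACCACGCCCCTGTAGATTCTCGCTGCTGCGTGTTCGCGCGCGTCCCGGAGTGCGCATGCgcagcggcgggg
DNAJC27, chr2:24972095-24972344, minus strand: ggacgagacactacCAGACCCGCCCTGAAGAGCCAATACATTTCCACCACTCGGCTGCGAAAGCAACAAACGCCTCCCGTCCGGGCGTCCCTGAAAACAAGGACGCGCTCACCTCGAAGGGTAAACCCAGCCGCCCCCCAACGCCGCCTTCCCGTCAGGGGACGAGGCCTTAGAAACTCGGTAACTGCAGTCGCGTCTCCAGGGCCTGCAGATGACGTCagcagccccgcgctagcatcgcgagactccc
ZEB1-AS1, chr10:31320448-31320697, minus strand: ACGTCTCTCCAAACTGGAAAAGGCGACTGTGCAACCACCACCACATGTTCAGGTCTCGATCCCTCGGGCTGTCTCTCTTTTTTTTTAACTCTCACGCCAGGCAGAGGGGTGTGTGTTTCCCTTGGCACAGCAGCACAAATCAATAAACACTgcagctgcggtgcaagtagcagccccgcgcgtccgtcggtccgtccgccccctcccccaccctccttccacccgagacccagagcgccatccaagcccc
VPS9D1-AS1, chr16:89711606-89711855, plus strand: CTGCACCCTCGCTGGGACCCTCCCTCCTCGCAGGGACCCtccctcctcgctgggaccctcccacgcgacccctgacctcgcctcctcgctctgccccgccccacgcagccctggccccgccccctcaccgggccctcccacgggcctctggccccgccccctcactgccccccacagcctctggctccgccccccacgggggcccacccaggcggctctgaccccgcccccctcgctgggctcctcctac
MCM3AP-AS1, chr21:46228981-46229230, plus strand: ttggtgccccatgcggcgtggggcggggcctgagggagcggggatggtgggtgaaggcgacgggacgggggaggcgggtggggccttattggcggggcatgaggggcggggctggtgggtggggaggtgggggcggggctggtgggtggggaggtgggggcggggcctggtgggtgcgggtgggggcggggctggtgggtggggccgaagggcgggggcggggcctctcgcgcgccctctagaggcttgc
In these windows the partner's exons covered 25 bases upstream of PRKAG2, 238 upstream of DDX11 and 205 upstream of DNAJC27. They covered 151 bases upstream of ZEB1-AS1, 39 upstream of VPS9D1-AS1 and 0 upstream of MCM3AP-AS1. GC content ran from 59.6% to 78.4%, against a median of 58.0% over 35116 promoter windows of the same length. The GC box letters GGGCGG, counted on both strands, occurred 7 times before MCM3AP-AS1, 5 times before VPS9D1-AS1, 2 times before PRKAG2 and before DNAJC27 and 1 time before ZEB1-AS1. They did not occur before DDX11, and 42.6% of all windows held them. CCAAT on either strand was found before DNAJC27 and MCM3AP-AS1 (32.0% of all windows), and TATAAA before none of these 6 genes (10.7% of all windows). RefSeq windows matched 592 members by symbol.

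Libraries held 234037969 to 625895062 expected counts in total, and replicate 1 was the deepest in both groups. Epithelial markers EPCAM, KRT8, KRT18, KRT19 and CDH1 were high in both groups, while the colon markers VIL1, CDH17 and LGALS4 were at or near 0. Of 8 markers of other cell types, COL1A1 alone exceeded 1 TPM in a group mean, at 1.81 in DMSO and 0.81 in auxin. Members were mostly low: their median level was 0.214 TPM, 431 lay under 0.1 TPM and 47 were listed at 0.00 TPM in at least 1 library. The kit was stranded, but whether counting used the strand is not given in the sources used here. Without it, reads of an antisense gene and of its host cannot be told apart where they overlap, so values of overlapping pairs carry this uncertainty. The deposited posterior standard deviation of the count was 0.0% of the count for AC020978.5, KIAA1614-AS1 and PITPNA-AS1. These named members had the most exonic bases on host exons (88.0%, 84.7% and 69.9%). What these values say about strand was not tested.

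After auxin more antisense genes were higher than lower. Of 1380 members tested, 344 (24.9%) were higher and 177 (12.8%) lower (edgeR quasi-likelihood test, Benjamini-Hochberg adjusted p under 0.05 over all genes). Among all 19725 genes tested, 52.3% were called, 25.4% higher and 26.9% lower. The members' share of higher calls was near that of all genes, and their share of lower calls was below it. All genes were not matched by level to the members, which were mostly low. At like levels, given further below, the members' share of higher calls was above that of all genes. Their share of lower calls was below it except at the lowest level. The median log2 fold change was 0.18 over the members, 0.02 over all genes and -0.01 over coding genes. Long intergenic non-coding genes gave similar values, with 25.5% higher, 9.98% lower and a median of 0.18.

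The size of the changes and the separation of the groups showed the same split towards higher members. At least 2-fold calls numbered 191 higher and 125 lower among the 1380 members tested. Among all 19725 genes tested they numbered 1292 (6.55%) and 2627 (13.3%). At this size the members' share was above that of all genes for higher calls and below it for lower calls, again without matching by level. All auxin libraries lay above all DMSO libraries for 449 of the 1380 members tested and below them for 234. Over all genes this held for 5912 (30.0%) and 5990 (30.4%), or 60.3% in either direction. The members' share above was near that of all genes, and their share below was smaller than that of all genes. Summed over all members, DMSO libraries held 1471, 1423 and 1319.9 CPM (counts scaled to the library total and TMM factor) and auxin libraries 1710.0, 1552 and 1573 CPM. The auxin sums all exceeded the DMSO sums. The split depended on the scale: on log2(TPM + 1) 107 members were higher and 89 lower (54.6% of calls higher, against 66.0% on counts), and on log2(TPM + 0.1) 111 and 110 (50.2%). Upper-quartile scaling raised the median of all genes by 0.12 and gave 406 higher and 147 lower.

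**Figure D1:**
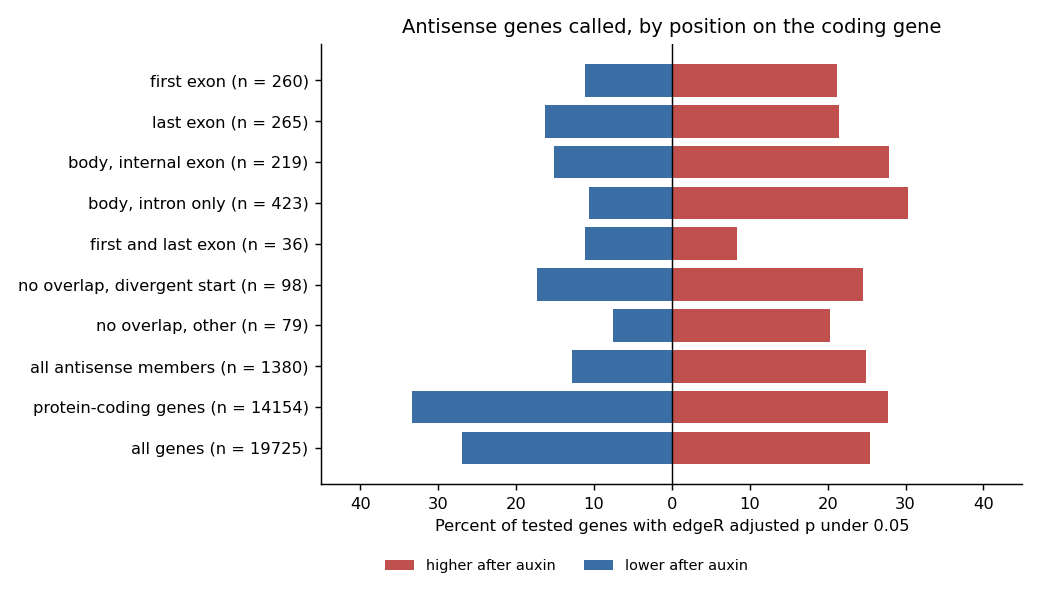
Percent of tested genes called higher (right, red) and lower (left, blue) after auxin, by position of the antisense gene on its host, beside all antisense members, coding genes and all genes; n is the number tested. Intron-only members had the largest share of higher calls, 30.3%. Every antisense class had a smaller share of lower calls than the 26.9% of all genes, which were not matched by level.

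Position classes differed in the balance of calls, and no test was made between them. Of 423 intron-only members tested, 128 were higher and 45 lower (median log2 fold change 0.27). Internal-exon members gave 61 higher and 33 lower of 219 (median 0.18), first-exon members 55 and 29 of 260 (0.17), and last-exon members 57 and 43 of 265 (0.04). The 36 tested members on both the first and last exon gave 3 higher and 4 lower. Divergent members gave 24 and 17 of 98, and the other members without overlap 16 and 6 of 79. On the 2 TPM scales last-exon and divergent members had more lower than higher calls, with 19 against 31 or 24 and 6 against 10 or 8.

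Summed levels of the DMSO and auxin libraries did not overlap in the intron-only class and among the 86 members with neither overlap nor a divergent start. The intron-only DMSO libraries summed to 380.3, 384 and 356 CPM and the auxin libraries to 512, 489 and 486 CPM. For the 86 members the sums were 24.8 to 28.8 CPM in DMSO and 32.8 to 38.0 CPM in auxin. Last-exon members summed to 287, 267 and 249 CPM in DMSO replicates 1, 2 and 3 and to 331, 283 and 291 CPM in the auxin replicates of the same numbers. These ranges overlap, but the auxin sum was higher in every same-numbered pair, as it was for first-exon and divergent members. The first-exon sums of replicate 2 were close, at 319.4 CPM in DMSO and 320.5 CPM in auxin. OTUD6B-AS1 alone made up 42.3% of the divergent sum. Internal-exon members summed to 316, 295 and 271 CPM in DMSO and 319, 294 and 299 CPM in auxin, so that the auxin sum was lower in replicate 2. FGD5-AS1 alone made up 44.4% of the internal-exon sum, and it was not called (log2 fold change -0.08, adjusted p 0.266).

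The balance of calls also differed by structure and by level. Members with 4 or more exons had 120 higher and 43 lower of 379 tested, and single-exon members 77 and 41 of 355. Members with 2 or 3 exons had 147 and 93 of 646, so the balance did not follow the exon number in order. Members that started over 10 kb past the start of the host's principal transcript had 188 higher and 83 lower of 636. Those starting 1 to 1000 bases past it had 43 and 27 of 222. Those starting 1 to 10 kb past it had 35 and 26 of 194, and those starting at or before it 38 and 18 of 151. Members with no exonic base on an exon of any host transcript had 85 higher and 27 lower of 265, and those with over 50% of exonic bases on such exons 41 and 35 of 216. Those in between had 178 and 92 of 722. Among all genes tested, 25.4% were higher and 26.9% lower, without matching by structure or level. Among 205 members with a mean of 1 to 10 CPM, 38.0% were higher and 17.6% lower, where all genes of that level had 22.0% and 40.4%. The difference was smaller among the 675 members at 0.1 to 1 CPM, with 26.8% higher and 12.9% lower beside 22.5% and 16.8% of all genes of that level. Under 0.1 CPM 73 members were higher and 52 lower of 473, and among 2585 genes of any type at that level 353 were higher and 214 lower.

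Hosts did not share the split. In the counts of hosts and pairs here and in the next paragraph, the coding neighbours of 97 divergent members, which do not overlap them, count as hosts. Of 1087 distinct hosts tested, 326 were higher and 359 lower (median log2 fold change -0.02). Over 1163 member and host pairs the log2 fold changes of the partners had a Pearson r of 0.24, which ranged from 0.10 for divergent pairs to 0.31 for internal-exon pairs. These are descriptions across pairs that share libraries and sometimes hosts. Both partners were called in 296 pairs, in the same direction in 185 and in opposite directions in 111.

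Antisense genes that fell were often paired with hosts that fell. Of 155 lower members with a tested host, 83 (53.5%) had a lower host, where 32.8% of all pairs had a lower host. The share was 75.0% (21 of 28) on internal exons, where 42.0% of pairs had a lower host, and 67.6% (25 of 37) on last exons, where 35.8% had one. On first exons it was 41.4% (12 of 29) beside 28.8%, and in introns 16 of 40 lower members had a lower host, as did 107 of all 369 intron-only pairs. On the rising side the share was near the background: of 292 higher members, 102 (34.9%) had a higher host, where 30.4% of all pairs had one. Of the other higher members, 85 had a lower host and 105 a host that was not called. Without a statement on strand in counting, the part that shared reads have in these counts was not tested.

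**Figure D2:**
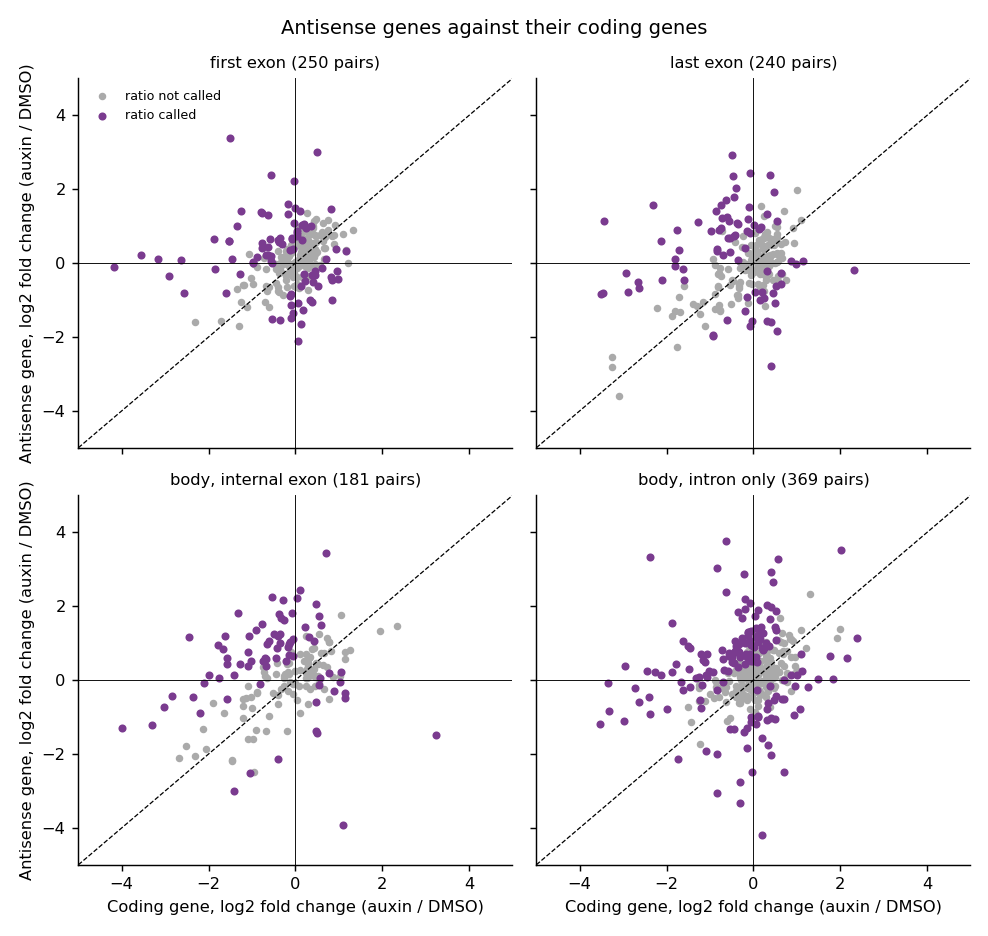
log2 fold change of the antisense gene (vertical axis) against that of its host (horizontal axis) for the 4 main position classes; each point is 1 pair, purple points had a called change in the antisense to host ratio and the dashed line marks equal change. Pairs near the dashed line in the lower left quadrant changed together, and purple points above the line gained antisense relative to the host.

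The ratio of antisense to host CPM within a library does not depend on the scaling between libraries. It was called in 408 of 1066 pairs (limma on the log2 ratio, adjusted over 3469 opposite-strand pairs of any gene type), 288 higher and 120 lower. Over those 3469 pairs 50.7% were called, 27.8% higher and 22.9% lower. The member pairs' share of higher ratios was near that of the 3469 pairs, and their share of lower ratios was below it. The median change was 0.23 over all member pairs, 0.41 on internal exons, 0.36 for intron-only pairs, 0.12 on first exons and 0.12 on last exons. Internal-exon pairs had 60 higher and 16 lower ratios of 181, and intron-only pairs 114 and 47 of 369. First-exon pairs had 56 and 30 of 250, and last-exon pairs 54 and 25 of 240. The share of higher ratios on first and on last exons was below that of the 3469 pairs. On internal exons and for intron-only pairs it was above it. With the replicate number as a block, lower ratios on internal exons numbered 28. Lower ratios on last exons numbered 15 without DMSO replicate 2 and 16 without auxin replicate 3, and those of intron-only pairs 31 without DMSO replicate 2.

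Of the 52 members named below 45 were called, and 20 of these 45 had no call on log2(TPM + 1): THAP9-AS1, LOXL1-AS1, NOP14-AS1, ARRDC1-AS1, PXN-AS1, SLC25A25-AS1, GAS6-AS1, VPS9D1-AS1, AC037459.3, AFAP1-AS1, KCNQ1OT1, AL161457.2, ZEB1-AS1, SPRY4-AS1, DDX11-AS1, DNAJC27-AS1, UBL7-AS1, AC093673.1, AC114811.2 and Z95115.1. DNAJC27-AS1 also changed sign there, and the others kept their direction.

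Members on the first exon start near or run across the promoter of the host. With the replicate block 44 of them were lower in place of 29, and without DMSO replicate 3 36 were higher in place of 55. PRKAG2-AS1 (chr7:151877042-151879223, plus strand) overlaps 84 bases of PRKAG2, which encodes a regulatory subunit of AMP-activated protein kinase and whose start region is printed above. It was at 1.79, 2.00 and 1.73 CPM in DMSO replicates 1, 2 and 3 and at 0.467, 0.410 and 0.384 CPM in auxin replicates 1, 2 and 3, the order kept for all values below. Every auxin library lay under every DMSO library, and the log2 fold change was -2.12 with an SE of 0.14 (adjusted p 3.05e-05). PRKAG2 itself was at 45.1 to 46.0 CPM in DMSO and 46.9 to 48.3 CPM in auxin (log2 fold change 0.07, adjusted p 0.271). The ratio thus changed by -2.19 on the log2 scale (SE 0.15, limma adjusted p 1.17e-05).

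TMPO-AS1 (chr12:98512973-98516422, minus strand) starts 792 bases past the start of the principal transcript of TMPO, the gene of a lamina-associated polypeptide. Its levels were 7.29, 7.82 and 7.63 CPM in DMSO and 2.77, 2.39 and 2.84 CPM in auxin. The groups did not overlap, and the log2 fold change was -1.51 (SE 0.10, adjusted p 3.37e-05). TMPO went from 417 ± 18.7 to 285 ± 12.5 CPM (SD, n = 3), a log2 fold change of -0.55, so that both genes fell and the antisense gene fell more (ratio -0.96, adjusted p 0.000422).

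DLEU2, a long non-coding gene that hosts the precursors of miR-15a and miR-16, runs across the first exon of TRIM13, a ubiquitin ligase gene. DLEU2 was at 9.78, 10.3 and 10.0 CPM in DMSO and 4.72, 5.57 and 4.64 CPM in auxin. It fell by 1.01 (SE 0.10, adjusted p 0.000163), with every auxin library lower. TRIM13 moved the other way, from 24.7 ± 1.48 to 44.4 ± 2.91 CPM (log2 fold change 0.85), and the ratio fell by 1.86 on the log2 scale.

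Among called first-exon members at a mean of 1 CPM or more whose host was tested and whose groups did not overlap, AC007285.1, DDN-AS1 and HMGN3-AS1 rose most. AC007285.1, opposite the peptidyl-prolyl isomerase gene FKBP14, was at 0.501, 0.585 and 0.475 CPM in DMSO and 2.37, 2.48 and 2.37 CPM in auxin (log2 fold change 2.21, adjusted p 1.92e-05). All auxin libraries were higher, while FKBP14 did not pass the test (-0.02). AC007285.1 also shares bases on its own strand with PLEKHA8, whose log2 fold change was 0.03.

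DDN-AS1 lies across PRKAG1, which encodes another regulatory subunit of AMP-activated protein kinase. It was at 1.97, 2.62 and 2.31 CPM in DMSO and 6.02, 6.13 and 6.37 CPM in auxin, so no library overlapped. It rose by 1.42 (SE 0.13, adjusted p 0.000102) on the log2 scale while PRKAG1 fell by 1.25, from 37.4 to 15.7 CPM. Its ratio change of 2.67 (SE 0.11) was the largest on a first exon among called pairs with both genes at 1 CPM or more.

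HMGN3-AS1, opposite the gene of a nucleosome-binding protein, rose from 0.740 ± 0.00976 to 1.96 ± 0.162 CPM (log2 fold change 1.40, adjusted p 9.51e-05), and HMGN3 was not called (0.10; adjusted p 0.0476 with the replicate block). Among listed first-exon members, LOXL1-AS1 went from 11.3 ± 0.638 to 14.8 ± 0.316 CPM (log2 fold change 0.40, adjusted p 0.00345). Its host LOXL1, a lysyl oxidase-like gene of matrix cross-linking, rose by 0.67. THAP9-AS1 was at 33.7, 33.7 and 32.0 CPM in DMSO and 30.2, 28.6 and 27.1 CPM in auxin. It fell by 0.21 (adjusted p 0.0272), a call lost without DMSO replicate 1 or 2 or auxin replicate 2 or 3 (adjusted p 0.0632 to 0.108) and with upper-quartile factors (0.364). GABPB1-AS1 (log2 fold change 0.19, adjusted p 0.579) and RAB11B-AS1 (0.36, adjusted p 0.123) did not pass the test. GABPB1-AS1 was highest in replicate 1 of both groups, 44.8 and 53.4 CPM, and between 26.8 and 31.9 CPM in the other libraries. With the replicate block its adjusted p was 0.00838.

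**Figure D3:**
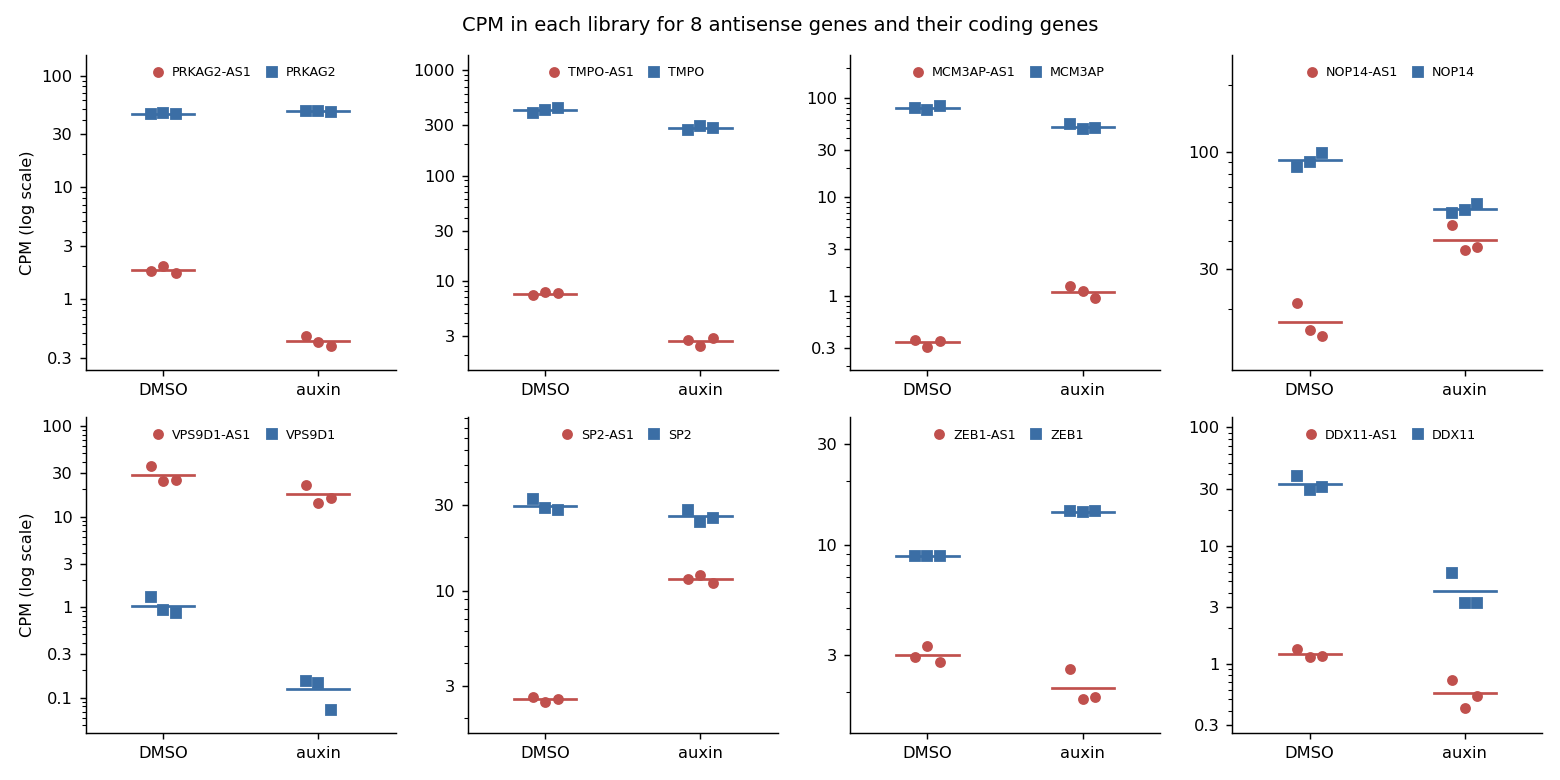
CPM in each library (log axis) of 8 antisense genes (red circles) and their hosts (blue squares) in DMSO and auxin; horizontal bars are group means and the 3 points of a group run from replicate 1 on the left to replicate 3. PRKAG2-AS1 falls while PRKAG2 was not called, MCM3AP-AS1 and NOP14-AS1 rise while their hosts fall, and DDX11 falls by more than DDX11-AS1.

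Members on the last exon lie over the end of the host. In several of the named pairs here the antisense gene was higher and the host lower after auxin. These pairs were chosen by the size of the change. Over the class both partners were called in 70 pairs, in the same direction in 41 and in opposite directions in 29. MCM3AP-AS1 (chr21:46229217-46259390, plus strand) overlaps 24265 bases of MCM3AP, which encodes the scaffold of the TREX-2 mRNA export complex. It was at 0.364, 0.309 and 0.357 CPM in DMSO and 1.27, 1.12 and 0.957 CPM in auxin. All auxin libraries were higher, by 1.70 (SE 0.17, adjusted p 0.000159) on the log2 scale. MCM3AP was at 80.3, 75.6 and 83.5 CPM in DMSO and 55.3, 49.2 and 50.6 CPM in auxin, without overlap (log2 fold change -0.63). The ratio rose by 2.32 (SE 0.16, adjusted p 1.27e-05).

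NOP14-AS1 showed the same pattern at a higher level, and it made up 10.2% of the last-exon sum. Opposite NOP14, a gene of small ribosomal subunit assembly, it was at 21.3, 16.0 and 15.2 CPM in DMSO and 47.3, 36.4 and 37.6 CPM in auxin. The groups did not overlap (log2 fold change 1.21, SE 0.16, adjusted p 0.000589). NOP14 fell by 0.72, and the ratio rose by 1.93. Per length, NOP14-AS1 went from 7.40 to 14.8 TPM and NOP14 from 35.2 to 19.2 TPM.

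BDNF-AS, opposite the neurotrophin gene BDNF, was at 0.858, 0.947 and 0.851 CPM in DMSO and 2.52, 2.80 and 2.52 CPM in auxin. Every auxin library was higher (log2 fold change 1.56, SE 0.12, adjusted p 5.08e-05), and BDNF fell by 0.74. BCDIN3D-AS1 rose by 1.92 (SE 0.17, adjusted p 9.43e-05), from 0.584 ± 0.0537 to 2.21 ± 0.378 CPM. Its host BCDIN3D, an RNA methyltransferase gene, rose too, by 0.47.

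In 2 last-exon pairs the ratio rose as the host fell by more than 2 on the log2 scale. ARRDC1, which encodes an arrestin-domain adaptor, was at 17.1, 13.97 and 13.5 CPM in DMSO and 1.70, 1.10 and 1.05 CPM in auxin, a log2 fold change of -3.52 (SE 0.22). ARRDC1-AS1 shares 29 bases with it and fell as well, by 0.84 (adjusted p 0.00514), so the ratio rose by 2.71. AGAP2, a GTPase-activating protein gene, fell by 2.12, while AGAP2-AS1 was at 7.33, 4.49 and 4.57 CPM in DMSO and 10.4, 6.99 and 7.57 CPM in auxin. AGAP2-AS1 overlapped between groups and was not called (0.60, adjusted p 0.0666). It was called with the replicate block (adjusted p 4.90e-05), by DESeq2 (0.0179), with upper-quartile factors (0.0455) and without DMSO replicate 1 (0.0054).

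Last-exon members that fell included some next to a coding gene on their own strand that fell. The last-exon member SLC25A25-AS1, given below, rose next to one with a log2 fold change of -1.72. Over all classes, 159 tested members had a tested same-strand coding gene ending within 5 kb upstream. Their log2 fold changes had a Pearson r of 0.23 with those of that gene. It was 0.31 over 83 members that overlap a coding gene on their own strand. U62317.2 (chr22:50523926-50524780, plus strand), opposite the copper chaperone gene SCO2, was at 3.65, 2.34 and 2.55 CPM in DMSO and 0.628, 0.239 and 0.348 CPM in auxin. It fell by 2.78 (SE 0.37, adjusted p 0.000668) on the log2 scale in non-overlapping groups, while SCO2 rose by 0.40. The condensin II gene NCAPH2 ends within 5 kb upstream of U62317.2 on its strand and had a log2 fold change of -3.32; its part in the result was not tested. AC020978.5, opposite the transcription factor gene NFATC3, fell by 1.29 (adjusted p 0.000824). It shares bases on its own strand with the epithelial splicing regulator gene ESRP2, which had a log2 fold change of -2.21, and the part of ESRP2 in the result was not tested.

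KIAA1614-AS1 was at 1.94, 2.07 and 1.86 CPM in DMSO and 0.515, 0.557 and 0.442 CPM in auxin, without overlap. It fell by 1.95 (SE 0.14, adjusted p 3.94e-05), and its low-level host KIAA1614 fell by 0.94, a call lost without DMSO replicate 1 or auxin replicate 2 or 3 (adjusted p 0.0532 to 0.0609). PITPNA-AS1 fell by 0.57 (adjusted p 0.032) while PITPNA, the gene of a phosphatidylinositol transfer protein, rose by 0.64. The call of PITPNA-AS1 was lost without DMSO replicate 2 or 3 or auxin replicate 1 or 2 (adjusted p 0.0659 to 0.0954) and with upper-quartile factors (0.0558).

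Among listed last-exon members, SLC25A25-AS1 was at 2.09, 1.32 and 1.08 CPM in DMSO and 4.53, 2.44 and 2.58 CPM in auxin. It rose by 1.09 (adjusted p 0.0264), a call lost without DMSO replicate 2 or 3 or auxin replicate 1 (adjusted p 0.0510 to 0.0933). PTGES2, which ends within 5 kb upstream of SLC25A25-AS1 on its strand, had a log2 fold change of -1.72. PXN-AS1, opposite the focal adhesion gene PXN, fell by 0.66 (adjusted p 0.0143) and PXN fell by 0.82. Without DMSO replicate 2 or auxin replicate 3 the adjusted p of PXN-AS1 was 0.0514 or 0.0555. THUMPD3-AS1 was not called (0.21, adjusted p 0.515; 0.0202 with the replicate block), and SRGAP3, which overlaps it on its own strand, had a log2 fold change of 1.90.

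Members on internal exons had the largest median ratio change. Their count of lower calls, 33, was 19 without auxin replicate 2 and 21 without auxin replicate 3. AC037459.3, a single-exon member on chromosome 8 opposite CCAR2, a gene of a nuclear regulator of deacetylase activity, was at 0.687, 0.592 and 0.593 CPM in DMSO and 1.75, 1.33 and 1.21 CPM in auxin. The groups did not overlap, and it rose by 1.20 (SE 0.18, adjusted p 0.00118) on the log2 scale. CCAR2 fell from 81.4 ± 3.64 to 26.6 ± 1.07 CPM, by 1.62, and the ratio rose by 2.79.

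AC012467.2 (chr3:53858994-53861576, minus strand) lies within IL17RB, a receptor gene for interleukin 25. Its levels were 8.47, 9.55 and 9.77 CPM in DMSO and 20.6, 21.8 and 23.3 CPM in auxin, with all auxin libraries higher. The log2 fold change was 1.24 (SE 0.09, adjusted p 3.59e-05), and IL17RB fell by 0.50. AP002478.1, inside the synaptic scaffold gene DLGAP1, rose by 1.16 (adjusted p 0.000231), while DLGAP1 was near the floor at 0.183 CPM in DMSO and 0.23 CPM in auxin.

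VPS9D1-AS1 (chr16:89711856-89718165, plus strand), also known as MYU, lies wholly inside VPS9D1 and is more abundant than its host. It was at 36.6, 24.99 and 25.5 CPM in DMSO and 22.3, 14.3 and 16.2 CPM in auxin. It fell by 0.72 (SE 0.21, adjusted p 0.0222), and the call was lost without auxin replicate 2 or 3 (adjusted p 0.0706 and 0.0766) and with upper-quartile factors (0.0586). VPS9D1 was at 1.31, 0.922 and 0.869 CPM in DMSO and 0.152, 0.146 and 0.0722 CPM in auxin, a log2 fold change of -3.03 (SE 0.31). Per length the antisense gene went from 30.0 to 17.0 TPM and the host from 0.487 to 0.05 TPM.

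GAS6-AS1 fell with GAS6, the ligand of the TAM receptor kinases, by 1.04 and 1.20, and the ratio was not called (0.22, adjusted p 0.352). TMEM255B, which overlaps GAS6-AS1 on its own strand, had a log2 fold change of 0.54. AC074117.1 and its host EIF2B4, a translation initiation factor gene, fell by 0.97 and 0.62, and the call of AC074117.1 was lost without auxin replicate 2 or 3 (adjusted p 0.0716 and 0.0777). AFAP1-AS1 fell by 0.59 (adjusted p 0.0195) while the actin filament-associated gene AFAP1 rose by 0.47. That call was lost without DMSO replicate 1 or auxin replicate 2 or 3 (adjusted p 0.0520 to 0.0712) and with upper-quartile factors (0.0629). KIF9-AS1 was at 1.79 to 2.22 CPM in DMSO and 1.40 to 1.91 CPM in auxin and was not called (-0.30, adjusted p 0.17; 0.0163 with the replicate block). Its kinesin host KIF9 rose by 0.90.

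KCNQ1OT1, the imprinted antisense RNA of the potassium channel gene KCNQ1, was at 12.2, 12.9 and 11.2 CPM in DMSO and 14.6, 15.2 and 17.2 CPM in auxin. All auxin libraries were higher, by 0.38 (SE 0.09, adjusted p 0.0123), and without DMSO replicate 3 the adjusted p was 0.0572. KCNQ1 fell by 0.69, and the ratio rose by 1.06 (SE 0.12, adjusted p 0.000202).

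Intron-only members lie clear of the exons of the host's principal transcript, but some of those named touch exons of other host transcripts. These are AP003068.2 with 24.2% of its exonic bases, ZFAS1 with 15.0%, ZEB1-AS1 with 9.55% and DNAJC27-AS1 with 3.56%. AL161457.2 follows with 2.75%, SGMS1-AS1 with 1.67% and DDX11-AS1 with 0.12%. Without the members that lie outside the principal transcript, the class gave 87 higher and 25 lower calls in place of 128 and 45. SP2-AS1 (chr17:47897330-47941410, minus strand), opposite the transcription factor gene SP2, was at 2.61, 2.44 and 2.54 CPM in DMSO and 11.6, 12.3 and 11.2 CPM in auxin. The groups were far apart, and the log2 fold change was 2.21 (SE 0.09, adjusted p 3.85e-06). SP2 was at 32.1, 28.7 and 28.3 CPM in DMSO and 28.2, 24.0 and 25.4 CPM in auxin and was not called (-0.20, adjusted p 0.0887; 0.00145 with the replicate block).

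AC093567.1 (chr18:48826051-48834770, minus strand), in an intron of the cap-binding translation factor gene CTIF, had the largest rise of the named members. It was at 0.266, 0.273 and 0.206 CPM in DMSO and 2.04, 1.90 and 1.77 CPM in auxin. It rose by 2.93 (SE 0.16, adjusted p 1.36e-05) without overlap, and CTIF rose by 0.41. SGMS1-AS1, which starts 968 bases upstream of the principal start of the sphingomyelin synthase gene SGMS1, was at 3.35, 2.81 and 2.34 CPM in DMSO and 12.3, 10.6 and 9.57 CPM in auxin. It rose by 1.93 (SE 0.16, adjusted p 7.62e-05), again with all auxin libraries higher, while SGMS1 had a log2 fold change of -0.20.

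DNAJC27-AS1 (chr2:24971390-25039694, plus strand), head to head with the J-domain gene DNAJC27 and covering the start region printed above, was at 0.211, 0.291 and 0.214 CPM in DMSO and 1.40, 1.18 and 1.14 CPM in auxin. On counts it rose by 2.39 (SE 0.19, adjusted p 6.25e-05), DNAJC27 fell by 0.63, and the ratio rose by 3.01 (SE 0.17), the largest rise of the named pairs on the count scale. Per length its level was 0.937 TPM in DMSO and 0.887 TPM in auxin, and on log2(TPM + 1) the difference was -0.0526 (adjusted p 0.843), with no call. The log2 ratio of its mean TPM to that of DNAJC27 went from -0.50 in DMSO to 0.12 in auxin, a difference of 0.63, so the size of the ratio change depended on the scale. The share of its TPM on the leading transcript was 94.0% in DMSO and 49.8% in auxin.

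Intron-only members also held falls. AP003068.2, near the start of the calpain gene CAPN1, was at 3.41, 3.76 and 4.07 CPM in DMSO and 0.857, 0.782 and 0.903 CPM in auxin. It fell by 2.14 (SE 0.13, adjusted p 1.74e-05) in non-overlapping groups, and CAPN1 fell by 1.74. CDKN2B-AS1, also called ANRIL and transcribed across the gene of the cell cycle inhibitor p15, was at 1.48, 1.19 and 1.33 CPM in DMSO and 0.613, 0.644 and 0.664 CPM in auxin. It fell by 1.06 (SE 0.14, adjusted p 0.000648) while CDKN2B rose by 0.51. AL161457.2 fell by 0.55 (adjusted p 0.0086) opposite PGM5, which was at 0.054 CPM in DMSO.

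DDX11-AS1 starts 51 bases upstream of the start of the principal DDX11 transcript, and ZEB1-AS1 starts 1322 bases past that of the principal ZEB1 transcript. ZEB1-AS1 lies opposite ZEB1, the gene of a transcriptional repressor with a role in epithelial-mesenchymal transition. ZEB1-AS1 was at 2.94, 3.32 and 2.80 CPM in DMSO and 2.57, 1.85 and 1.90 CPM in auxin. ZEB1-AS1 fell by 0.51 (SE 0.16, adjusted p 0.0308), a call lost without DMSO replicate 2 or auxin replicate 2 or 3 (adjusted p 0.0851 to 0.105) and with upper-quartile factors (0.104). ZEB1 rose from 8.85 ± 0.0222 to 14.3 ± 0.123 CPM, by 0.69 on the log2 scale, and the ratio fell by 1.22 (adjusted p 0.000374). DDX11-AS1 shares 3 bases with the helicase gene DDX11 and was at 1.34, 1.13 and 1.17 CPM in DMSO and 0.729, 0.423 and 0.533 CPM in auxin. It fell by 1.10 (SE 0.22, adjusted p 0.00439), and DDX11 fell by 2.98, from 33.1 ± 5.04 to 4.16 ± 1.51 CPM.

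PIK3CD-AS2 was at 1.99, 2.04 and 1.98 CPM in DMSO and 2.31, 2.33 and 2.54 CPM in auxin, in groups that did not overlap. It was not called (0.25, adjusted p 0.0796; 0.0239 with the replicate block), and its host PIK3CD, a phosphoinositide 3-kinase catalytic subunit gene, fell by 2.45, so the ratio rose by 2.78. SPRY4-AS1 rose by 0.64 (adjusted p 0.00959) and the growth factor gene FGF1, the host by overlap, rose by 1.78. ZFAS1, a host of small nucleolar RNAs that the naming rule did not remove, was at 32.4, 43.5 and 38.1 CPM in DMSO and 35.1, 42.5 and 41.4 CPM in auxin. These ranges overlap, and ZFAS1 did not pass the test (0.06, adjusted p 0.70).

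**Figure D4:**
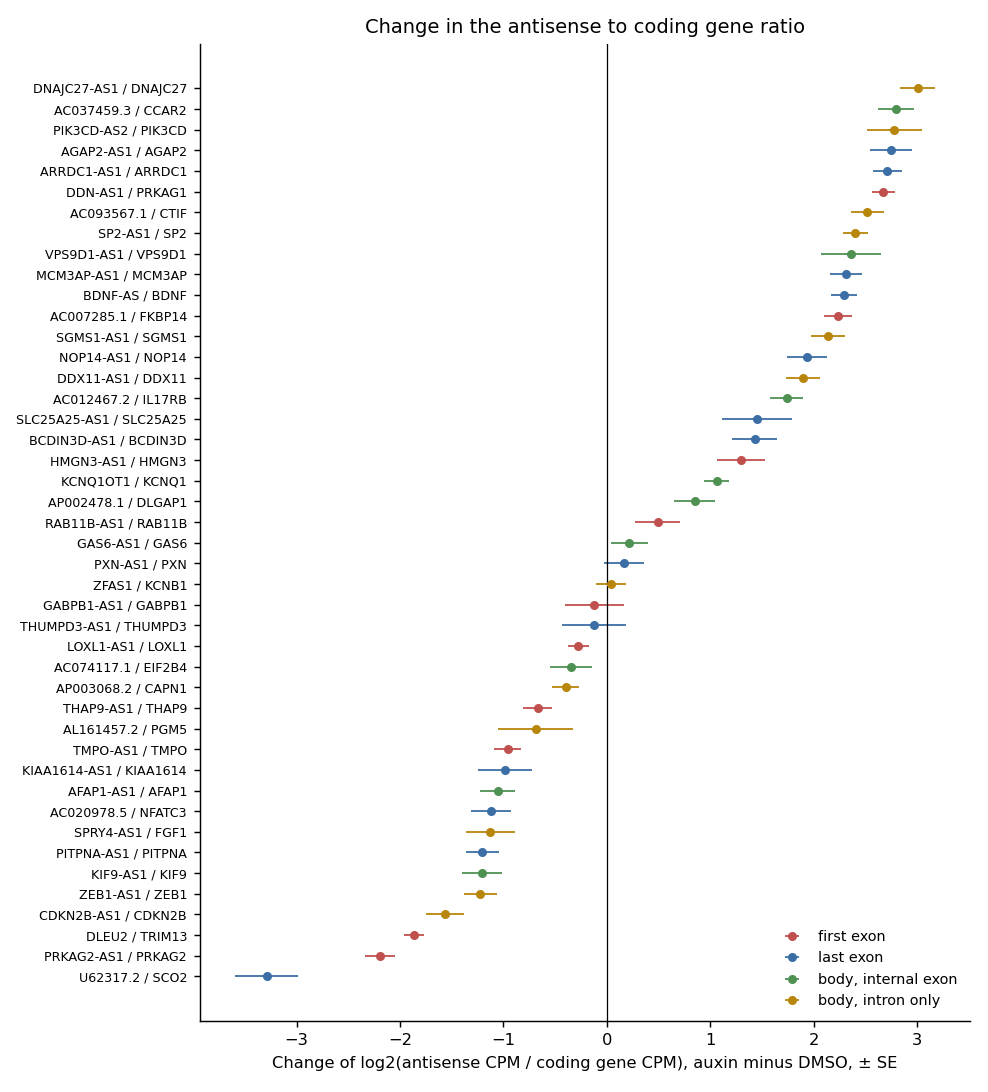
Change of the log2 ratio of antisense to host CPM, auxin minus DMSO, with its SE, for the named pairs that overlap, coloured by position class. DNAJC27-AS1 at 3.01 and AC037459.3 at 2.79 lie highest, and U62317.2 at -3.29 and PRKAG2-AS1 at -2.19 lowest.

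Divergent members share a start region with a coding gene without overlapping it. With the replicate block 26 were lower in place of 17, and 11 were lower without DMSO replicate 1, auxin replicate 2 or auxin replicate 3. SEPSECS-AS1, beside the selenocysteine synthesis gene SEPSECS, was at 1.81, 2.16 and 2.19 CPM in DMSO and 1.07, 0.803 and 1.04 CPM in auxin. It fell by 1.08 (SE 0.16, adjusted p 0.00113), and SEPSECS was not called (-0.04). UBL7-AS1 fell by 0.76 (adjusted p 0.00637), and UBL7 was not called (-0.13; adjusted p 0.0183 with the replicate block). AC093673.1 fell by 0.62 (adjusted p 0.00667), and its neighbour ZYX, the focal adhesion gene of zyxin, fell by 1.35.

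AL445524.1 had the highest TPM of the named divergent members that rose, 32.96 in DMSO and 53.7 in auxin. It was at 7.72, 9.47 and 9.54 CPM in DMSO and 13.4, 16.5 and 18.6 CPM in auxin. It rose by 0.86 (SE 0.14, adjusted p 0.00196) in non-overlapping groups, while TSNAX, its neighbour with a role in RNA trafficking, had a log2 fold change of 0.00 (adjusted p 0.996). AC114811.2 rose by 1.01 (adjusted p 0.000604) with TSPAN5, a tetraspanin gene, at 0.46. Z95115.1 rose by 0.61 (adjusted p 0.00431) with the spliceosome disassembly gene TFIP11 at 0.57. Among members with neither overlap nor a divergent start, AC139795.2 rose by 1.73 (adjusted p 0.000237) and AC006329.1 by 0.81 (adjusted p 0.000228).

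Genes of the nuclear exosome, which degrades antisense RNA, and of factors linked to it were read in the same fit. Of 26 nuclear exosome and adaptor genes tested, 14 were higher and 6 lower (median log2 fold change 0.28). Among the 14154 coding genes tested, 27.8% were higher and 33.4% lower. On log2(TPM + 1) 2 were higher and 6 lower. EXOSC10, the nuclear catalytic 3'-5' exonuclease of the exosome, was at 115, 104 and 108 CPM in DMSO and 21.6, 15.2 and 16.0 CPM in auxin. All auxin libraries were lower, and the log2 value fell by 2.63 (SE 0.14, adjusted p 1.19e-05). Per length it went from 44.0 to 8.27 TPM.

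Of the core ring subunits, EXOSC5 fell by 1.31, EXOSC8 by 0.77 and EXOSC9 by 0.59, while EXOSC4, EXOSC6 and EXOSC7 rose by 0.66, 0.64 and 0.41. Of the cap subunits, EXOSC1 fell by 0.85, EXOSC2 rose by 0.48 and EXOSC3 was not called (0.30, adjusted p 0.273; 3.66e-05 with the replicate block). The second nuclear nuclease gene DIS3 rose by 0.40. Among adaptors, PABPN1, the nuclear poly(A)-binding protein of the PAXT connection, fell by 0.93, and the helicase gene MTREX was not called (-0.21, adjusted p 0.0852; 0.000601 with the replicate block). The cap-binding and cap-linked genes SRRT, NCBP2 and NCBP1 rose by 0.72, 0.66 and 0.45. How the level of these genes bears on the antisense genes was not tested.

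**Figure D5:**
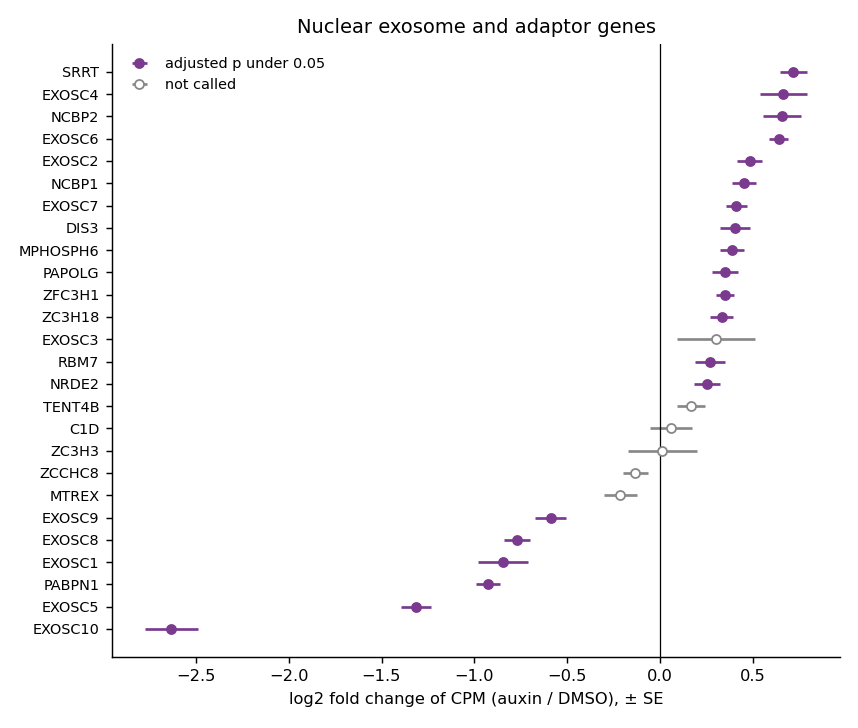
log2 fold change of CPM with its SE for the 26 nuclear exosome and adaptor genes, filled where the edgeR adjusted p was under 0.05. EXOSC10 stands apart at -2.63, EXOSC5 follows at -1.31, and the 14 higher genes lie between 0.25 and 0.72.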

How the data were processed

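Members, lists and classes were chosen with earlier results of these data known. The authors deposited, per the file headers, an expected count (an estimated read number, not normalized) and a TPM (an abundance per length, with equal library totals) for each gene and transcript in each of 6 libraries. The tables also hold a posterior standard deviation of each count, and 28 members had one above 10% of the count. Per the labels' protocols, ribosomal RNA was depleted, and a stranded kit and paired-end reads were used. The submitters' processing notes name bcl2fastq 2.20, STAR and DESeq2 and the builds GRCh38 and hg38, with no roles. The counting tool and its use of strand are not given in the sources used here. IDs matched GENCODE release 29, which gave types, exons and GRCh38 coordinates; 778 members have a current symbol.

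Expected counts were rounded, filtered with filterByExpr, scaled with TMM factors and tested with glmQLFTest (edgeR 4.0.16, R 4.3.3), auxin against DMSO with 3 libraries each. The filter left out 110 members. Names in the tables that are no gene took at most 0.00111% of a library and were left out. CPM values use TMM factors, and SEs derive from the F statistic. Ratios of antisense to host CPM (prior count 1) were tested with limma 3.58.1, with a variance trend on the level of the lower gene. All p-values are two-sided and Benjamini-Hochberg adjusted over all genes or pairs. The scripts were tested on simulated counts in which few genes changed, evenly up and down, and none at the low levels of most members. That setting differs from these data, so it does not test the scaling under widespread change or the calls of low members.

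The principal host transcript had the best APPRIS rank, then the longest exons, and an overlap took at least 1 base. Named were, per class, the 3 largest rises and falls among called members with a mean CPM of at least 1, a tested host and non-overlapping groups. Added were the 2 largest ratio changes each way with both genes at 1 CPM or more, and 15 listed genes (of 22) that were members. Same-numbered libraries deviated together from their group means (r of 0.62, 0.24 and 0.25 for numbers 1, 2 and 3). The main fit had no block, and a fit with the replicate number of the labels as a block was run beside it. Replicate 1 alone stood apart: DMSO 3 with auxin 2 gave 0.288 and DMSO 2 with auxin 3 gave 0.158. For numbers 2 and 3 the pairing thus rests on the labels alone. The blocked value is printed where it changes a call or a count by over 1.5 times. Alternatives were DESeq2 1.42.0, other scalings and filters, TPM, class definitions and leaving out each library. The median member had 33.1 to 114 expected counts in a library, where counting error alone gives a CV (Poisson) of 9.37% to 17.4%, and the lowest member mean was 0.018 CPM.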

Additional observations from a re-analysis of the deposited data

How the results depend on the processing

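Of the members called in the fit on counts, 0 were called in the opposite direction by any other gene-level fit (DESeq2, other scalings and filters, TPM, the replicate block, fewer libraries). Over all members, leaving out 1 library gave 245 to 326 higher and 125 to 195 lower calls and ratio counts of 247 to 294 and 84 to 136, and replicates 2 and 3 alone gave 337 and 207. Higher and lower calls without 1 library ranged over 36 to 56 and 21 to 37 on first exons, 40 to 58 and 33 to 46 on last exons, 46 to 61 and 19 to 36 on internal exons, and 95 to 114 and 30 to 47 for intron-only members. They ranged over 0 to 2 and 3 to 5 for both first and last exon, 18 to 22 and 11 to 18 for divergent members, and 8 to 14 and 3 to 6 for other members. The last ranges reached 8 without DMSO replicate 2 and 3 without DMSO replicate 1 or 3 or auxin replicate 2 or 3. Ratio calls ranged over 46 to 58 and 24 to 36 on first exons and 49 to 57 and 15 to 31 on last exons. They ranged over 52 to 59 and 11 to 20 on internal exons and 95 to 116 and 31 to 46 for intron-only pairs. Exosome calls ranged over 12 to 14 and 6 to 6. On log2(TPM + 0.1) higher and lower calls were 111 and 110 in all, 16 and 14 on first exons, 19 and 31 on last exons, 23 and 21 on internal exons, 40 and 29 for intron-only members, 0 and 3 for both exons, 6 and 10 for divergent members and 7 and 2 for others. On log2(TPM + 1) they were 107 and 89, then 16 and 9, 19 and 24, 21 and 16, 39 and 28, 0 and 2, 6 and 8, and 6 and 2 in the same order, and 2 exosome genes were higher. DNAJC27-AS1 (-0.0526) and the exosome-linked gene NRDE2 (-0.0099) changed sign there without a call, and the cause was not tested. With 10 counts in every library, which tests fewer members (1036), lower calls were 113 in all, 16 on internal exons, 1 for both exons and 3 for others. Without a filter 1 member on both exons was higher. Using exons of every coding transcript gave 84 and 46 on first exons, 20 lower on internal exons and 13 and 8 on both exons. Using the whole antisense span gave 87 higher on last exons, 39 on internal exons, 76 for intron-only members and 37 and 15 on both exons. Without overlaps outside the principal transcript 25 intron-only members were lower. With the replicate block there were 440 higher and 247 lower members in all, 44 lower on first exons, 5 higher on both exons, 26 lower divergent members and 28 lower ratios on internal exons, and the block moved no other count by over 1.5 times. Leaving out members that share bases with a coding gene on their own strand, chosen after the data were seen, gave 319 and 161. Depth limits the lowest members: 110 were not tested.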
